A study of Mus musculus with 6 samples.

Results

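The cell cycle and DNA replication genes described here are 38 genes taken by name from a table of 34745 genes measured in mouse liver, and all 38 were found there. They are cyclins, E2F factors, replication and mitosis genes, the inhibitors Cdkn1b and Cdkn2c, Foxm1 and Myc. The livers came from wild-type mice, C57BL/6J males of 8 to 10 weeks per the study's methods, which were fasted for 12 hours and injected with a toxic dose of acetaminophen (APAP, 300 mg/kg) or with saline. APAP livers were taken 12 hours after the injection. Bulk RNA-Seq was read in 5 libraries, APAP replicates 1 and 3 and 3 libraries of the control group, WT1 to WT3. These WT libraries were read as saline because the remaining columns carry the drug's name, and all directions given below rely on it. The labels also list APAP replicate 2, not analysed here.

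A cell leaves quiescence when growth signals raise MYC and the D-type cyclins, whose kinases release E2F factors from the retinoblastoma proteins. E2F factors then induce cyclin E and the proteins that load the MCM helicase on replication origins, after which DNA synthesis begins. Cyclin A, cyclin B and CDK1 act later, and their genes, with those of the mitotic kinases and the spindle checkpoint, are held silent in resting cells by the DREAM complex. Adult hepatocytes rest outside the cycle and can enter it again after a loss of liver mass or a toxic injury.

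The total count per library lay between 13378445 and 15976339, so that a floor of 3 counts, which covers counting error only, stood for 0.176 to 0.269 CPM (counts per 1000000, on library sizes normalized by TMM in edgeR). Hepatocyte markers summed to 65917 to 109171 CPM in APAP and 117564 to 158426 CPM in saline livers, with 1 of 8 called lower. Of 12 neutrophil markers, 11 were tested and 8 called higher, with sums of 86.5 to 135 CPM against 5.65 to 9.95 CPM, and Ly6g and Camp had 0 counts in every saline library. Of 6 cholangiocyte markers, 5 were tested and 2 called higher, Sox9 and Spp1, with sums of 347 to 356 CPM against 47.1 to 51.9 CPM, most of it Spp1. Of 8 monocyte markers, all were tested and 3 called higher (Chil3, F13a1 and Ccr2), with sums of 95.3 to 151 CPM against 72.2 to 108 CPM. Over all genes tested, 3.70% were called higher and 3.53% lower. No tested marker of Kupffer, sinusoidal endothelial, stellate, T and NK, B and plasma or erythroid cells was called. The B and plasma cell markers summed to 159 CPM in WT2, against 22.0 CPM in WT1, 19.8 CPM in WT3 and 18.5 and 29.9 CPM in APAP livers. The part of these cell types in the results was not tested. Xist, the RNA of the inactive X chromosome, was at 0.764 to 1.73 CPM in the APAP and at 289.6 to 914 CPM in the saline libraries, and 4 Y-linked genes were called higher, so sex-linked expression and treatment cannot be told apart in any comparison here. The Xist levels of the saline libraries are those of female tissue and go against the male sex that the methods state.

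Of the 38 genes, 31 had enough counts to be tested and 7 did not (Cdc6, Ccnb1, Foxm1, Aurkb, Plk1, Bub1 and Bub1b). In edgeR's quasi-likelihood test, with p-values adjusted by Benjamini-Hochberg over all 13734 genes tested, 3 rose with APAP (Myc, Cdt1 and Mcm2), where 3.70% of all genes tested rose. A single gene, Tk1, fell, against 3.53% of all genes tested, and 7.23% of all genes tested were called in either direction. At the thresholds named in the study (fold change of at least 1.5 and unadjusted P under 0.05), 8 were higher and 2 lower, against 12.3% and 11.2% of all genes tested. The additional genes were Ccnd1, Ccne1, Mcm3, Mcm5 and Mcm6 on the higher side and Cdkn2c on the lower side, and 21 passed neither rule. The groups did not overlap in 9 genes that were higher and 3 that were lower, against 24.0% and 20.1% of all genes tested. The median log2 fold change of the 31 genes was 0.22 (range, -3.42 to 3.31), beside 0.03 over all genes tested. In bulk tissue, fewer cells of a type and less RNA per cell cannot be told apart.

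At the study's thresholds, 12.3% of all genes tested were higher. Among the tested genes of the 38, all past these thresholds on the higher side belonged to G1 entry (2 of 4), the E-type cyclins (1 of 2) or origin licensing (5 of 7 tested). Of these, Ccne1 reached the filter's minimum count of 10 in the APAP libraries only, and Mcm5 in both APAP libraries and WT1 alone. They thus entered the test through the group where they are high. None of the 8 tested genes of S/G2/M and mitosis passed the study's thresholds in either direction. Over all genes tested, 12.3% were higher and 11.2% lower there, so 0 among 8 genes is not read as a difference. Of those 8 genes, 4 had a fold under 1, as did 6589 of all 13734 genes tested. No E2F factor, CDK inhibitor, S/G2/M or mitotic gene was called by edgeR's likelihood ratio test or DESeq2 either. The median log2 fold change was 1.34 for G1 entry, 1.59 for the E-type cyclins and 1.43 for licensing, beside 0.08 for DNA synthesis, 0.03 for the E2F factors, -0.59 for the S/G2/M cyclins with Cdk1, 0.39 for mitotic genes and -0.86 for the CDK inhibitors. The E-type median lies midway between Ccne1 (3.05) and Ccne2 (0.12), and that of G1 entry midway between Ccnd1 (2.62) and Ccnd2 (0.06). Neither value is near any gene of its role. The late roles are read here from 8 of their 14 genes, since 6 were too scarce to be tested, and in 4 of those 6 (Foxm1, Bub1, Ccnb1 and Aurkb) every APAP library was above every saline library. The 24.0% given above covers tested genes only, so there is no share over genes as scarce as these 4 to set beside that count. Without the filter on low counts, the fitted log2 fold changes of these 4 were 2.94, 2.54, 1.78 and 1.495, with adjusted p of 0.185, 0.502, 0.577 and 0.535 in edgeR. Foxm1, at an unadjusted P of 0.0276 in edgeR's quasi-likelihood test, passed the study's thresholds on that fit. There 10 of the 38 genes were higher and 3 lower at those thresholds, so the roles that held higher genes depended on the filter. On that fit the median was -0.10 over all 5 S/G2/M genes, 0.39 over all 9 mitotic genes and 1.46 over all 8 licensing genes, and 9 of the 14 late genes had a value above 0. The difference between roles was not tested.

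**Figure D1:**
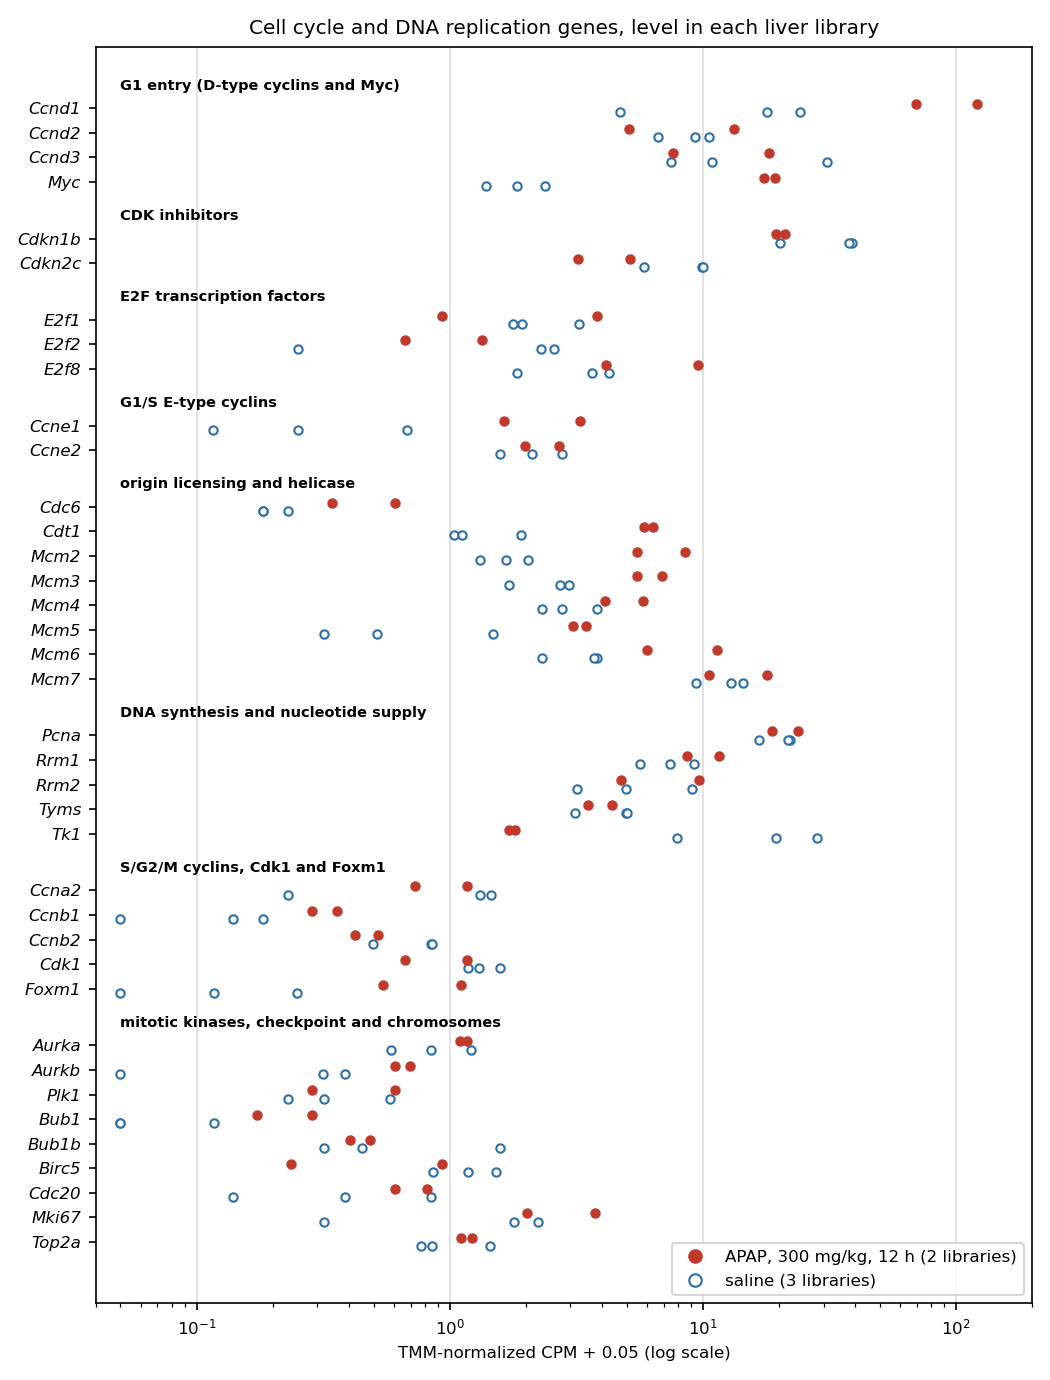
Level of each of the 38 genes in each liver library, ordered by role. The horizontal axis is TMM-normalized CPM plus 0.05 on a log scale, filled red points are the 2 APAP libraries and open blue points the 3 saline libraries. The red points of Ccnd1, Myc, Cdt1 and Mcm2 lie to the right of all blue points, those of Tk1 lie to the left, and both colors mix for most S/G2/M and mitotic genes.

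Myc, the transcription factor that drives growth and entry into the cycle (chr15:61985341-61990374, plus strand, GRCm38), was at 17.5 and 19.3 CPM in APAP livers and at 1.34, 1.79 and 2.34 CPM in saline livers. Both APAP libraries were far above every saline library, and the values within each group lay close together. The mean was 18.4 ± 1.30 CPM in APAP (SD, n = 2) and 1.83 ± 0.498 CPM in saline livers (SD, n = 3), a 9.95-fold difference (log2 fold change 3.31, SE 0.31, adjusted p = 0.00376 by edgeR's quasi-likelihood test). Myc was the one gene of the 38 whose call held with each library left out in turn, with log2 fold changes of 3.16 to 3.53 and adjusted p of 0.00649 to 0.0356 in edgeR. None of the 50-base words of its longest transcript occurred in another gene.

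Ccnd1, cyclin D1 (chr7:144929931-144939869, minus strand), the partner of CDK4 and CDK6, was at 69.3 and 121 CPM with APAP, against 24.2, 17.9 and 4.68 CPM with saline. The groups did not overlap, yet the values spread widely in both. Its log2 fold change was 2.62 (SE 0.61, 95% interval 1.17 to 4.06), with an unadjusted P of 0.00373 and an adjusted p of 0.0506 in edgeR's quasi-likelihood test, just short of the threshold. With each library left out in turn, the adjusted p in edgeR was under the threshold only without WT3, the lowest of its group (0.0250, log2 fold change 2.18). It was 0.129 without APAP 1, 0.173 without APAP 3, 0.0714 without WT1 and 0.158 without WT2, at log2 fold changes of 2.15 to 3.09. Exons of LTO1 on the opposite strand share 1100 bases with Ccnd1 (23.4% of its exonic bases), and the strand setting of the counts is not given in the sources used here. LTO1 itself was at 24.2 and 15.6 CPM with APAP, against 8.96, 12.6 and 8.28 CPM with saline (log2 fold change 0.997, adjusted p = 0.0924). The ratio of Ccnd1 to LTO1 counts was 2.86 and 7.79 in APAP livers and 2.70, 1.42 and 0.565 in saline livers, so the APAP ratios were the higher ones, by a small margin over WT1.

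The other D-type cyclins did not share this pattern of levels. Ccnd2 was at 5.05 and 13.3 CPM with APAP and 10.6, 9.30 and 6.61 CPM with saline, with a 95% interval of the log2 fold change from -0.99 to 1.10. Ccnd3 was at 7.58 and 18.3 CPM against 10.8, 30.8 and 7.42 CPM, with an interval from -1.88 to 1.20. In both genes the groups overlapped throughout. Per kilobase of exon, Ccnd1 made up 91.3% and 88.0% of the D-type cyclin level in APAP livers and 68.5%, 45.7% and 39.1% in saline livers. With APAP it was the most abundant of the 38 genes per kilobase (mean 20.2 CPM per kb), and ranked 4 with saline (3.31 CPM per kb), although the 2 APAP levels of 14.7 and 25.8 CPM per kb differed widely. Length here was that of all annotated exons merged, 4709, 9409 and 8775 bases for Ccnd1, Ccnd2 and Ccnd3. Their longest coding transcripts have 3740, 6330 and 2113 bases, so shares and ranks between genes depend on the length used.

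Cdkn1b, the inhibitor p27 that keeps cyclin-CDK complexes inactive in resting cells, was at 19.4 and 21.1 CPM with APAP and 20.2, 38.9 and 37.9 CPM with saline. Saline library WT1 lay between the APAP libraries and the other two saline libraries lay above them (log2 fold change -0.68, 95% interval -1.43 to 0.08). Cdkn2c, the inhibitor p18 of CDK4 and CDK6, was at 5.11 and 3.15 CPM against 9.86, 9.96 and 5.81 CPM. Both APAP libraries were lowest, with a log2 fold change of -1.04 (SE 0.38, unadjusted P = 0.0304 and adjusted p = 0.154 in edgeR's quasi-likelihood test).

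The E2F factors gave no call. E2f1, an activator of S-phase genes, was at 0.881 and 3.77 CPM in APAP livers, below and above all saline values of 1.88, 1.73 and 3.21 CPM. E2f2, another activator, was at 1.29 and 0.618 CPM against 2.24, 2.52 and 0.200 CPM, so saline library WT3 lay apart from the other two. E2f8, a repressor that acts late in S phase, was at 4.11 and 9.52 CPM against 4.21, 1.79 and 3.61 CPM, with a 95% interval of the log2 fold change from -0.10 to 2.29. E2f8 shares 610 exonic bases with Gm2788 on the opposite strand, which was at 1.29 and 2.91 CPM with APAP and 20.6, 6.18 and 5.81 CPM with saline.

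Of the E-type cyclins, which carry the cell from G1 into S phase with CDK2, Ccne1 (chr7:38097984-38107534, minus strand) was at 1.59 and 3.21 CPM with APAP and 0.627, 0.0664 and 0.200 CPM with saline. These levels came from 27 and 52 counts against 7, 1 and 3 counts, so saline libraries WT2 and WT3 were at or under the floor. The log2 fold change was 3.05 (SE 0.83, 95% interval 1.08 to 5.03), with an unadjusted P of 0.00819 and an adjusted p of 0.0766 in edgeR's quasi-likelihood test. Ccne2 was at 1.94 and 2.66 CPM against 1.52, 2.06 and 2.74 CPM, and its groups overlapped (95% interval -0.95 to 1.19). Exons of Ints8 on the opposite strand share 609 bases with Ccne2 (17.4% of its exonic bases). Ints8 was at 17.9 and 20.3 CPM with APAP, against 19.1, 20.9 and 23.2 CPM with saline. The part of Ints8 reads in the level of Ccne2 was not tested.

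**Figure D2:**
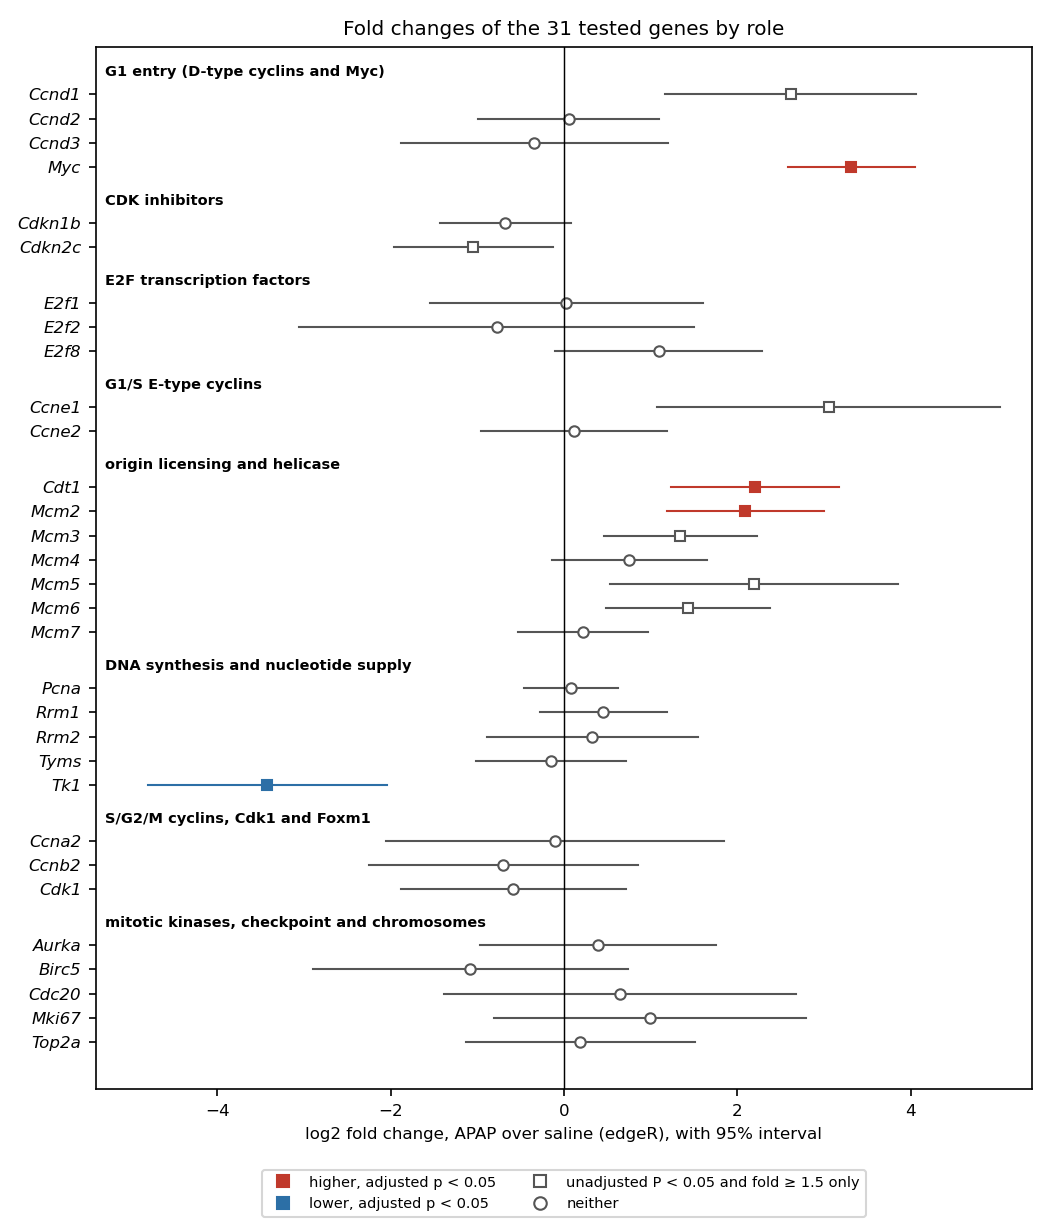
Fitted log2 fold change of APAP over saline for the 31 tested genes, by role, with 95% intervals from edgeR. Filled squares are genes with an adjusted p under 0.05 (Myc, Cdt1 and Mcm2 higher in red, Tk1 lower in blue), open squares are genes past the study's thresholds only, and open circles are the others. All 7 tested licensing genes lie right of 0, and the intervals of all S/G2/M and mitotic genes cross 0.

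Origin licensing held most of the higher genes. CDC6 and CDT1 load the MCM complex, a ring of 6 different subunits encoded by Mcm2 to Mcm7, on replication origins in G1, and the ring later unwinds DNA as the helicase. All 7 tested genes of this role had a fitted value above 0, also under each other scaling of the libraries. In 6 of the 7 the groups did not overlap, against 24.0% of all genes tested that were higher without overlap. Promoters of 3 of them are shown, from the RefSeq set for GRCm38.p6, from 250 bases before to 50 bases after an annotated start site, 5′ to 3′ along the gene's strand. Cdt1 (chr8:122567765-122568064, plus strand) and Mcm2 (chr6:88898731-88899030, minus strand) are the licensing genes that rose, and Mcm5 (chr8:75109259-75109558, plus strand) is shown for its E2F motifs on both strands. Capitals mark the motifs searched on both strands, which were the E2F motif (TTTCCCGC, TTTGGCGC, TTTCGCGC or TTTGCCGC), the CHR motif bound by DREAM (TTTGAA or TTCGAA) and the CCAAT box.
Cdt1 promoter: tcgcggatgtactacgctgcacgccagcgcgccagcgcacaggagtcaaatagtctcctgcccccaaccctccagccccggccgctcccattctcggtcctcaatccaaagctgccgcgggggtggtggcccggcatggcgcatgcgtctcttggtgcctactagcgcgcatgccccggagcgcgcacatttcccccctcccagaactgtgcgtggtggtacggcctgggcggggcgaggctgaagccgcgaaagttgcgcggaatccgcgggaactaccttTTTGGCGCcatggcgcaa
Mcm2 promoter: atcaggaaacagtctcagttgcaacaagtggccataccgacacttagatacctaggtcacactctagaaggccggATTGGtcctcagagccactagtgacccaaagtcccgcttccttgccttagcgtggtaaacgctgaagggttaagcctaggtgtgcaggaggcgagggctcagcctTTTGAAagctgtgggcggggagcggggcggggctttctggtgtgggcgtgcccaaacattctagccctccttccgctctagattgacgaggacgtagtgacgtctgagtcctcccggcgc
Mcm5 promoter: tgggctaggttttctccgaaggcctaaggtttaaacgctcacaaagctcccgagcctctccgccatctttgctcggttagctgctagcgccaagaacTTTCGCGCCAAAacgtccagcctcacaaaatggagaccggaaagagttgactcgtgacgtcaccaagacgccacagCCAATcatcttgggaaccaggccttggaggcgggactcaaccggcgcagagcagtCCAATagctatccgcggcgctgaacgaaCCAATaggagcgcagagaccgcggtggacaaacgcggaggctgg
Counted with the start site as 0, the E2F match of Cdt1 lay at 32 to 39, those of Mcm5 at -153 to -146 and, on the other strand and overlapping, at -149 to -142, and the CHR match of Mcm2 at -70 to -65. A match is a description of the letters and not a measured binding site.

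Cdt1 was at 5.82 and 6.30 CPM in APAP livers and at 0.986, 1.86 and 1.07 CPM in saline livers. The APAP values were near each other and above all saline values. Its mean was 6.06 ± 0.345 CPM in APAP (SD, n = 2) and 1.30 ± 0.482 CPM in saline livers (SD, n = 3), a 4.59-fold difference (log2 fold change 2.20, SE 0.41, adjusted p = 0.0281 by edgeR's quasi-likelihood test). Mcm2 was at 8.46 and 5.44 CPM against 1.61, 1.99 and 1.27 CPM, again without overlap. It differed 4.26-fold (log2 fold change 2.09, SE 0.38, adjusted p = 0.0266 in edgeR). Both calls were lost in each of the 5 fits that left out 1 library (APAP 1, APAP 3, WT1, WT2 or WT3), with log2 fold changes of 2.05 to 2.55 and adjusted p of 0.0583 to 0.130 for Cdt1, and of 1.74 to 2.36 and 0.0551 to 0.186 for Mcm2. Neither gene shared a 50-base word with another gene.

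Among the other subunits, Mcm5 was at 3.41 and 3.03 CPM with APAP and 1.43, 0.465 and 0.267 CPM with saline (log2 fold change 2.19, SE 0.70, adjusted p = 0.113 in edgeR). Saline library WT1 was the highest of its group, and without it the log2 fold change of Mcm5 was 3.12 and the adjusted p 0.0480. Without APAP 1, APAP 3, WT2 or WT3 the adjusted p of Mcm5 was 0.349, 0.253, 0.294 and 0.167 in edgeR. Mcm6 was at 5.99 and 11.4 CPM against 3.76, 3.65 and 2.27 CPM (log2 fold change 1.43, SE 0.40, adjusted p = 0.0818). Mcm3 was at 6.87 and 5.44 CPM against 2.69, 2.92 and 1.67 CPM (log2 fold change 1.34, SE 0.37, adjusted p = 0.0792). In these 3 genes every APAP library was above every saline library, and each passed the study's thresholds but not the adjusted p. Mcm4 was at 4.05 and 5.75 CPM against 3.76, 2.72 and 2.27 CPM, with a small gap between the groups and a 95% interval of the log2 fold change from -0.14 to 1.65. Mcm7 was at 10.5 and 17.9 CPM against 14.4, 9.37 and 12.9 CPM, the one tested licensing gene whose groups overlapped (95% interval -0.53 to 0.97). Of the 50-base words of Mcm7, 34.2% occurred in Gm5487 or other genes, and its exons overlap those of Cops6 and Ap4m1.

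The levels of the 6 subunits were compared within each library, on merged exonic lengths. That of Mcm2 was 6956 bases, where its longest coding transcript has 3371, so the ratios between subunits depend on the length used. Per kilobase of exon, the highest level among Mcm2 to Mcm7 was 2.78 and 5.34 times the lowest with APAP and 14.1, 18.2 and 43.5 times the lowest with saline. Without Mcm7 these ratios were 2.15 and 3.21 with APAP and 4.52, 6.72 and 9.46 with saline. Mcm5, at 7 and 4 counts in WT2 and WT3, set the saline ratios there, and without both Mcm5 and Mcm7 the ratios were 1.62 and 3.12 with APAP and 4.52, 2.73 and 3.47 with saline, so the groups overlapped. Their summed level was 39.3 and 49.0 CPM with APAP and 27.7, 21.1 and 20.6 CPM with saline. Cdc6, the loading ATPase, had 5 and 9 counts with APAP and 2 counts in each saline library, too few to be tested.

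DNA synthesis and nucleotide supply held the one gene that fell. Tk1, thymidine kinase, which salvages thymidine for DNA synthesis (chr11:117815526-117826092, minus strand), was at 1.76 and 1.67 CPM in APAP livers and at 19.4, 28.2 and 7.88 CPM in saline livers. The APAP values nearly coincided, while those of the saline libraries spread over a wide range, all above them. Its mean was 1.72 ± 0.0663 CPM (SD, n = 2) against 18.5 ± 10.2 CPM (SD, n = 3), or 10.7-fold lower (log2 fold change -3.42, SE 0.58, adjusted p = 0.0216 by edgeR's quasi-likelihood test). The call held without WT3 (adjusted p = 0.00649) and was lost without APAP 1, APAP 3, WT1 or WT2, at log2 fold changes of -3.46, -3.40, -3.38 and -2.99 and adjusted p of 0.134, 0.0931, 0.0605 and 0.0730 in edgeR. Per kilobase, Tk1 ranked 3 of the 38 genes with saline (3.56 CPM per kb) and 24 with APAP (0.330 CPM per kb). These ranks use a merged exonic length of 5198 bases for Tk1, whose longest coding transcript has 1440.

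Afmid, the arylformamidase of tryptophan breakdown, lies on the opposite strand of Tk1 and shares 83 exonic bases with it, 1.60% of the exons of Tk1. Afmid was at 5.46 and 6.24 CPM with APAP and 65.4, 52.6 and 64.4 CPM with saline (log2 fold change -3.38, adjusted p = 0.00181 by edgeR's quasi-likelihood test). Both genes were thus lowest in the same libraries, and without a stated strand setting their reads cannot be told apart where they overlap. The ratio of Tk1 to Afmid counts was 0.323 and 0.267 in APAP livers and 0.297, 0.535 and 0.122 in saline livers, a range that held both APAP ratios. The part of Afmid in the fall of Tk1 was not tested. The promoter of Tk1 (chr11:117825965-117826264, minus strand) is shown because it is the gene that fell, and held none of the letters searched.
Tk1 promoter: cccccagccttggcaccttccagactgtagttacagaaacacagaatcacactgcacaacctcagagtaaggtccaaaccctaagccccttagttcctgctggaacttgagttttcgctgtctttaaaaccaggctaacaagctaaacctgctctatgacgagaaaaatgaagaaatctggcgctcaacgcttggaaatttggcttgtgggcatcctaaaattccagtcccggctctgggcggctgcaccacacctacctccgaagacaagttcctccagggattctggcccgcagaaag

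**Figure D3:**
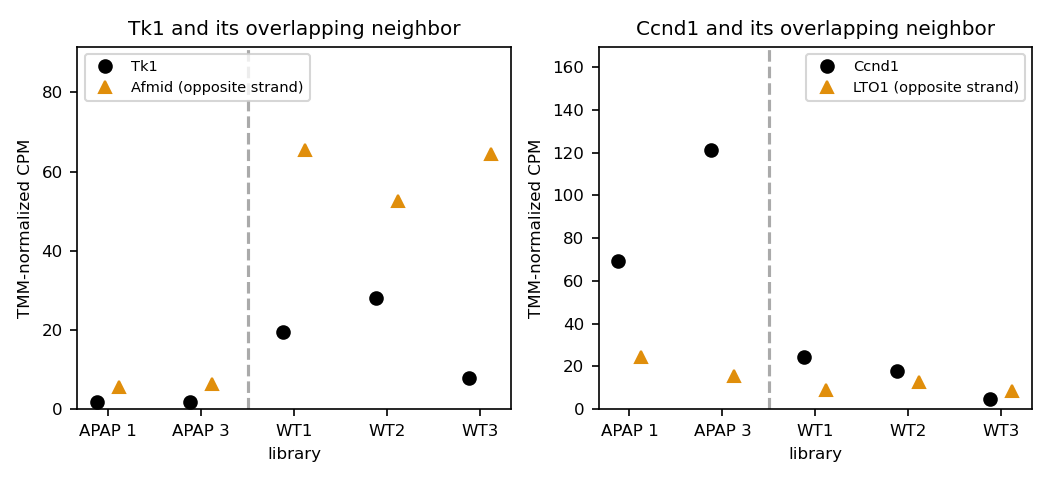
TMM-normalized CPM of Tk1 and Ccnd1 (black circles) and of a neighbor on the opposite strand whose exons overlap theirs (orange triangles, Afmid and LTO1), in each of the 5 libraries, with a dashed line between APAP and saline. Tk1 and Afmid are both lower in both APAP libraries, and Ccnd1 is above LTO1 in every library but WT3.

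The other genes of this role gave no call. Pcna, the sliding clamp of the replication polymerases, was at 18.7 and 23.8 CPM against 22.0, 16.6 and 21.7 CPM, and its 95% interval of the log2 fold change, -0.47 to 0.62, was the narrowest of the 31 tested genes. It was the most abundant of the 38 genes per kilobase in saline livers (8.38 CPM per kb) and ranked 2 with APAP, but 31.8% of its 50-base words occurred in pseudogenes such as Pcna-ps2 or in other genes. Rrm1, the large subunit of ribonucleotide reductase, was at 11.6 and 8.59 CPM against 9.14, 7.37 and 5.61 CPM (log2 fold change 0.45, 95% interval -0.28 to 1.18). Rrm2, the small subunit of that enzyme, was at 9.64 and 4.70 CPM against 3.14, 4.92 and 9.02 CPM, and Tyms, thymidylate synthase, was at 3.47 and 4.33 CPM against 4.93, 4.98 and 3.07 CPM. The groups overlapped in all 4 of these genes.

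The genes of S/G2/M and mitosis were scarce in every library. The summed level of all 14 was 12.99 and 9.09 CPM with APAP and 6.72, 10.9 and 9.75 CPM with saline, so APAP 3 lay within the saline range. Ccna2, cyclin A2, was at 1.12 and 0.680 CPM against 0.179, 1.26 and 1.40 CPM. Exons of Exosc9 on the opposite strand share 510 bases with Ccna2 (12.5% of its exonic bases). Exosc9 was at 15.5 and 8.72 CPM with APAP, against 8.51, 9.17 and 8.02 CPM with saline. The part of Exosc9 reads in the level of Ccna2 was not tested. Cdk1, the kinase of mitotic entry, was at 1.12 and 0.618 CPM against 1.25, 1.13 and 1.54 CPM, the one tested gene of these roles whose groups did not overlap, with APAP on the lower side by a narrow gap (log2 fold change -0.59, 95% interval -1.89 to 0.71, adjusted p = 0.560 by edgeR's quasi-likelihood test). Ccnb2, a B-type cyclin that partners CDK1, was at 0.470 and 0.371 CPM against 0.448, 0.797 and 0.802 CPM. Ccnb1, the other B-type cyclin, had 4 and 5 counts with APAP and 1, 0 and 2 counts with saline, and 42.1% of its 50-base words occurred in other genes such as Ccnb1-ps.

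Foxm1, the transcription factor of G2/M genes, had 18 and 8 counts with APAP and 0, 3 and 1 counts with saline. All saline libraries were at or under the floor of 3 counts and both APAP libraries above it. It was removed by the filter on low counts. Without that filter its log2 fold change was 2.94 (SE 1.17, unadjusted P = 0.0276 and adjusted p = 0.185 in edgeR's quasi-likelihood test), past the study's thresholds only. That fitted value depends on the prior count.

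Mki67, which encodes the proliferation antigen Ki-67, was at 3.70 and 1.98 CPM against 0.269, 2.19 and 1.74 CPM. APAP 1 was the highest library and APAP 3 lay within the saline range (1.99-fold, 95% interval of the log2 fold change -0.81 to 2.80, adjusted p = 0.470 by edgeR's quasi-likelihood test). Top2a, the topoisomerase that untangles chromosomes, was at 1.06 and 1.17 CPM against 0.717, 1.40 and 0.802 CPM. Aurka, a kinase of spindle poles, was at 1.12 and 1.05 CPM against 1.17, 0.797 and 0.534 CPM. Both genes were nearly equal in the APAP libraries, inside the spread of the saline libraries. Cdc20, the activator of the anaphase-promoting complex, was at 0.764 and 0.556 CPM against 0.0896, 0.797 and 0.334 CPM, and Birc5, survivin, was at 0.881 and 0.185 CPM against 0.807, 1.13 and 1.47 CPM. The groups overlapped in all 5 of these genes.

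The remaining mitotic genes were too scarce to be tested. Aurkb, the kinase of the chromosomal passenger complex, had 11 and 9 counts with APAP and 0, 4 and 5 counts with saline. Bub1, a kinase of the spindle checkpoint, had 4 and 2 against 0, 0 and 1 counts, the lowest level per kilobase of the 38 genes. Plk1, a kinase of mitotic entry and spindle assembly, had 4 and 9 against 2, 8 and 4 counts, and Bub1b, a checkpoint protein, had 6 and 7 against 17, 6 and 4 counts. APAP libraries were above all saline libraries in Aurkb and Bub1 and within their range or overlapping it in Plk1 and Bub1b.

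The same motifs were searched in the promoters of the late genes. Of the 11 S/G2/M and mitotic genes with a promoter in the RefSeq set, 9 (81.8%) held a CHR motif and 10 (90.9%) a CCAAT box, while 1, Cdk1, held an E2F motif. Of the 16 E2F, cyclin E, licensing and DNA synthesis genes with a promoter, 7 (43.8%) held an E2F motif, 4 (25.0%) a CHR motif and 10 (62.5%) a CCAAT box. Among 10146 tested genes with a promoter the shares were 4.45%, 16.5% and 42.8% for E2F, CHR and CCAAT, and among all 27025 genes of the set 2.60%, 21.7% and 41.1%. A gene with several start sites was counted once if any window held the motif. Promoters of 8 of the 38 genes were not found in the set (Ccnd1, Ccnd2, Myc, Ccne2, Mcm4, Ccna2, Foxm1 and Aurkb). Cdk1 (chr10:69352863-69353162, minus strand) and Ccnb2 (chr9:70421505-70421804, minus strand) are shown as late genes with several CHR and CCAAT matches, to be set beside the licensing promoters above.
Cdk1 promoter: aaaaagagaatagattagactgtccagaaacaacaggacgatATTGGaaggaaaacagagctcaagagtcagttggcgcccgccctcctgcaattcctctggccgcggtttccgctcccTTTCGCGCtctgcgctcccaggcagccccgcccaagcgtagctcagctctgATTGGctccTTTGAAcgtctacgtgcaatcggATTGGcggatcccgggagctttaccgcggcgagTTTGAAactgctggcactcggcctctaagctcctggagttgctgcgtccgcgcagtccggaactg
Ccnb2 promoter: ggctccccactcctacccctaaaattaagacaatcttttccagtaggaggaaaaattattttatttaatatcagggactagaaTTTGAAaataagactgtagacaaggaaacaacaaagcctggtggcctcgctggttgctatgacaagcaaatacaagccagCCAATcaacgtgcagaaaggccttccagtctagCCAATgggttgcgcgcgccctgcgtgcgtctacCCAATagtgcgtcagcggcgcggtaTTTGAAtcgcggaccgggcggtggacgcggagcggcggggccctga
The CHR matches of Cdk1 began at -71 and -15 and those of Ccnb2 at -167 and 4, and each promoter held 3 CCAAT boxes.

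**Figure D4:**
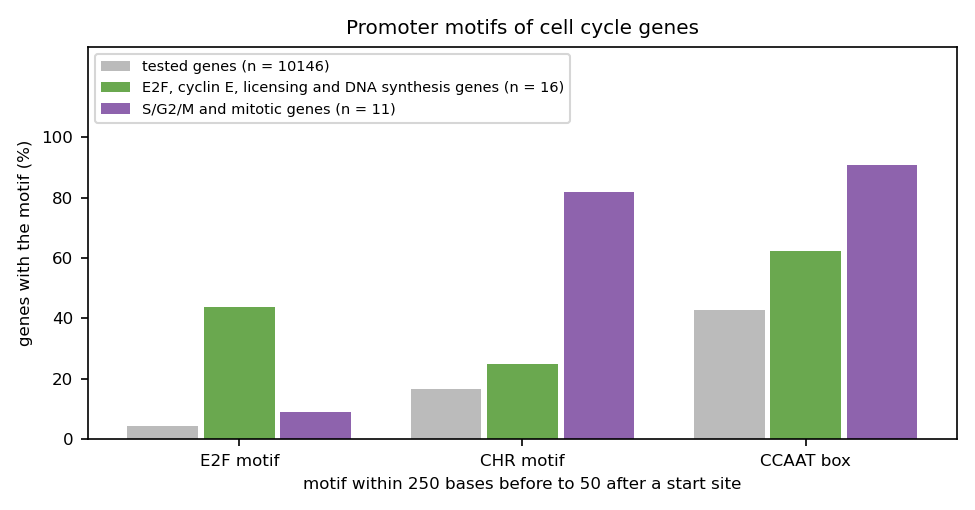
Share of genes (%) whose promoter, 250 bases before to 50 after a start site, holds the E2F motif, the CHR motif or the CCAAT box on either strand. Gray bars are the 10146 tested genes with a promoter, green bars the 16 E2F, cyclin E, licensing and DNA synthesis genes, and purple bars the 11 S/G2/M and mitotic genes. The E2F share is highest in green (43.8%) and the CHR share in purple (81.8%).

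The wider cell cycle machinery was read from 133 further genes in 5 lists. Of these, 105 were tested, 3 rose and 3 fell in edgeR's quasi-likelihood test (2.86% each, against 3.70% and 3.53% of all genes tested), and their median log2 fold change was 0.30, beside 0.03 over all genes tested. At the study's thresholds 19 were higher (18.1%, against 12.3% of all genes tested) and 7 lower (6.67%, against 11.2%). Of the 46 further replication genes, 43 were tested, with no call, 7 higher at the study's thresholds (16.3%, against 12.3% of all genes tested), 0 lower and a median of 0.36. The largest of these were Gins3, a subunit of the helicase activator (log2 fold change 1.86, unadjusted P = 0.0437 in edgeR), and Fen1, the flap endonuclease of lagging-strand synthesis (log2 fold change 1.37, unadjusted P = 0.00834 in edgeR). Neither passed the adjusted p.

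Of the 27 genes of CDKs, pocket proteins, E2F and DREAM, 26 were tested and 1 was called, on the lower side (3.85%, against 3.53% of all genes tested). Rbl2, the pocket protein p130 of the DREAM complex in resting cells, was at 23.7 and 23.2 CPM with APAP and 46.4, 45.8 and 51.5 CPM with saline, without overlap (log2 fold change -1.03, SE 0.19, adjusted p = 0.0275 by edgeR's quasi-likelihood test). At the study's thresholds 6 of this list were higher (23.1%, against 12.3% of all genes tested) and 1 lower (3.85%, against 11.2%). The largest were the kinase Wee1 (log2 fold change 1.81, unadjusted P = 0.0355 in edgeR) and the phosphatase Cdc25a (log2 fold change 1.57, unadjusted P = 0.00883 in edgeR). In the MYC network, 9 of 10 were tested and 1 was called, on the lower side (11.1%, against 3.53% of all genes tested). Mxi1, a MAX partner that opposes MYC, was at 16.4 and 19.4 CPM against 42.3, 32.7 and 36.9 CPM (log2 fold change -1.06, SE 0.22, adjusted p = 0.0372). Both Rbl2 and Mxi1 were thus lower in each APAP library than in each saline library. Mycn (log2 fold change 2.20, unadjusted P = 0.0251 in edgeR) and Mxd4, another MAX partner (log2 fold change -0.95, unadjusted P = 0.0198 in edgeR), passed the study's thresholds only. Mycn had 14 and 36 counts with APAP and 6, 5 and 2 counts with saline. It reached the filter's minimum count of 10 in the APAP libraries only, and thus entered the test through the group where it is high.

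Of the 6 further CDK inhibitors, 3 were tested and none was called at the adjusted p or at the study's thresholds, which include an unadjusted P under 0.05. Cdkn1a, the inhibitor p21, was at 172 and 151 CPM with APAP and 13.9, 57.3 and 210 CPM with saline. Its saline libraries spread more widely than the difference between the groups, and WT3 was above both APAP libraries (log2 fold change 0.78, 95% interval -1.35 to 2.92, adjusted p = 0.643 by edgeR's quasi-likelihood test).

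Of the 44 further mitosis genes, 24 were tested, 3 rose (12.5%, against 3.70% of all genes tested) and 1 fell (4.17%, against 3.53%). Ccnf, cyclin F, a subunit of a ubiquitin ligase, was at 38.7 and 43.3 CPM with APAP and 11.9, 13.9 and 16.2 CPM with saline (log2 fold change 1.55, SE 0.21, adjusted p = 0.0117 by edgeR's quasi-likelihood test). Tuba1c, an alpha-tubulin, was at 173 and 187 CPM against 73.9, 77.5 and 52.7 CPM (log2 fold change 1.40, adjusted p = 0.0221), and Incenp, of the chromosomal passenger complex, was at 4.82 and 2.84 CPM against 0.807, 1.06 and 0.534 CPM (log2 fold change 2.25, adjusted p = 0.0450). Spc24, of the kinetochore, was at 2.06 and 1.30 CPM against 7.35, 6.51 and 4.74 CPM (log2 fold change -1.88, adjusted p = 0.0403). None of these 4 genes overlapped between the groups, and tubulin serves in resting cells too. At the study's thresholds 5 of the list were higher (20.8%, against 12.3% of all genes tested) and 4 lower (16.7%, against 11.2%), the largest without a call being the motor Kif11 (log2 fold change -1.65, unadjusted P = 0.0227 in edgeR) and the midzone protein Prc1 (log2 fold change 1.59, unadjusted P = 0.0380 in edgeR). The other 20 of the 44 were too scarce to be tested.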

How the data were processed

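Liver RNA-Seq counts of 5 libraries were analysed. The authors sequenced on an Illumina NovaSeq platform and obtained read counts with HISAT2, which they deposited raw, as 1 value for each gene in each library. The build is GRCm38 per the labels, and the annotation, strand setting and program versions are not given in the sources used here. The 5 FPKM columns were not used. The saline columns were used as replicates without a number, and p-values measure only the spread between these libraries. Replicate libraries differed beyond sampling noise (a chi-square of 43.2 to 92.2 for each degree of freedom).

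APAP was compared with saline using edgeR 4.0.16 under R 4.3.3 (filterByExpr with a minimum count of 10 and a minimum total of 15, TMM, glmQLFit and glmQLFTest, Benjamini-Hochberg adjustment over 13734 genes), and the procedure was tested on simulated data. The common dispersion was 0.111. SE was the log2 fold change over the root of F. DESeq2 1.42.0, edgeR's likelihood ratio test, other scalings and filters, and each library left out in turn were the alternatives. Exonic lengths and overlaps were taken from GENCODE M21 with Python 3.11.15, in which 34267 of the 34745 identifiers were found. Length was that of all annotated exons of a gene merged, so comparisons between genes per kilobase depend on it. Coordinates of genes are those of the table. Promoters were those of RefSeq for GRCm38.p6.

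All 38 genes were described. Of each further list, the genes with an adjusted p under 0.05 (at most 4), up to 2 others past the study's thresholds with the largest fold change, and Cdkn1a were named. Afmid, LTO1, Gm2788, Ints8, Exosc9 and some other genes that overlap or resemble a member were named for that. Of the 38 genes, 12 share exonic bases with another gene, and 11 have over 10% of their 50-base words in other genes. Not all of these other genes were named. The genes, roles and lists were chosen with earlier results of these data known.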

Additional observations from a re-analysis of the deposited data

How the results depend on the processing

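Counts of calls among the 38 genes moved with the test more than the fitted values did. Of 359 fitted values of single genes under the alternatives, 306 kept their direction and their side of the threshold, 14 lost and 18 gained a call, and 21, in 9 genes that passed neither rule, had the other sign. E2f1 (0.03) became -0.0033 with DESeq2 and -0.0049 with its size factors, and with library size only Tyms (-0.15) became 0.24 and Ccna2 (-0.10) became 0.26. With each library left out in turn, E2f1 ranged from -1.37 to 0.73, Ccnd2 from -0.81 to 0.59, Ccnd3 from -1.12 to 0.50, Ccne2 from -0.14 to 0.35, Mcm7 from -0.23 to 0.56, Pcna from -0.12 to 0.25, Rrm2 from -0.28 to 0.83, Tyms from -0.35 to 0.0050 and Ccna2 from -0.55 to 0.27. The 3 genes called higher became 8 with the likelihood ratio test, 7 with DESeq2, 7 with library size only and 5 without the filter on low counts, the additions being among Ccnd1, Ccne1, Mcm3, Mcm5 and Mcm6. The genes called higher and lower over the whole table, 508 and 485, became 966 and 869 with the likelihood ratio test, 938 and 1155 with DESeq2 and 1042 and 297 with library size only, which raised the share of higher calls from 51.2% to 77.8% and the median of all genes from 0.03 to 0.42 (log2). The median of the 31 genes, 0.22, became 0.18 with DESeq2 and with its size factors, 0.60 with library size only and 0.36 without the filter. Relative to all genes it was 0.19 with TMM and 0.18 with library size only. At the study's thresholds, 11 genes in place of 8 were higher and 1 in place of 2 was lower with library size only. Without the filter on low counts, 10 were higher and 3 lower at those thresholds. Upper-quartile factors and a stricter filter (10 counts or more in each library) kept all of these counts within 1.5 times.

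With each library left out in turn, 1 to 2 of the 38 genes were called higher and 0 to 1 lower, 7 to 9 were higher and 1 to 3 lower at the study's thresholds, the median was 0.21 to 0.36, and 87 to 434 genes of the table were called higher and 78 to 488 lower, the fewest without WT2. Where an APAP library was left out, the lone APAP sample was assumed to vary like the saline libraries. These fits had fewer libraries, and other causes were not tested.

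With 2 APAP libraries and a biological coefficient of variation of 33.3%, mitotic genes below 1 CPM had intervals several log2 units wide, so a missing call does not show that they did not differ. Sex-linked expression separated the groups in all 5 libraries. No paired analysis was possible because the columns WT1 to WT3 are not named for the numbered saline samples, and no label ties an APAP liver to a saline liver by animal, litter or batch.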
